A study of Mus musculus with 121 samples.

Results

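The early response of the mouse tumour mca4 to carbon ions was followed on 6 arrays, out of 40 carbon and 81 gamma arrays in the series. The arrays were chosen by their titles: 2 from unirradiated tumours (0 h), 2 from tumours sampled 6 hours after a dose of 30 Gy, and 2 from tumours sampled 1 day after the same dose. Per the labels, mca4 is a mammary carcinoma that arose spontaneously in a C3H/He mouse. It was grown as a transplant in the hind leg of male C3H/HeMs mice, and the leg was irradiated locally in a single dose. All 3 groups share the host strain and the transplant site and carry no genetic modification named in the labels; the ages of the mice are not given in the sources used here. Whether a group's 2 arrays come from different animals is not stated. The p-values here reflect the spread between arrays of the same group, pooled over all groups of a fit. They may therefore cover technical variation only.

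Carbon ions deposit energy densely along their track and cause clustered DNA breaks. Broken DNA activates checkpoint kinases and the transcription factor p53, which induces genes of cell cycle arrest and cell death. Cells held before mitosis lower the genes that drive chromosome segregation, and damaged tissue can release chemokines and induce interferon-stimulated genes. In a transplanted tumour, RNA comes from carcinoma cells and from host cells such as fibroblasts, leukocytes and the surrounding muscle. In bulk RNA, fewer cells of a type and less RNA per cell cannot be told apart.

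The labelled carcinoma was checked on epithelial genes. Epcam, an epithelial adhesion gene, lay between 141.1 and 170.6 intensity units on the 6 arrays, Cdh1, which encodes E-cadherin, between 34.2 and 42.2, and the keratin gene Krt19 between 30.0 and 54.8. Krt8, another keratin gene, was dimmer at 2.83 to 5.65, and Krt18 was not among the probes with 1 gene symbol. Col3a1, a fibroblast collagen gene, reached 53.6 to 91.5, and the macrophage complement gene C1qa 20.6 to 38.5. Col1a1, another collagen gene, was dimmer at 3.36 to 5.48. The T cell gene Cd3e lay at 0.0417 to 0.113 and the endothelial gene Cdh5 at 0.148 to 0.294, near the dim end of the array. Other genes of these cells were brighter, with the endothelial genes Pecam1 at 2.75 to 3.20 and Kdr at 5.09 to 6.73, and the T and NK cell genes Cd3g at 0.472 to 1.03 and Nkg7 at 0.371 to 0.775. Arrays had 35550 to 35804 of 36227 probes with a value and medians of 1.06 to 1.07 units. The median SD of a gene within a group was 0.0641 log2 at 0 h, 0.0864 at 6 hours and 0.0784 at day 1.

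Changes below are log2 differences of array intensity from unirradiated mca4, with the standard error (SE) of a limma model fitted to the 40 carbon arrays. A gene rose or fell where its p-value from that model, adjusted by the Benjamini-Hochberg method over 13957 genes, was under 0.05. At 6 hours 918 genes rose and 973 fell, or 13.5% of those tested (6.58% higher and 6.97% lower). At day 1, 1340 rose and 601 fell, or 13.9% (9.60% higher and 4.31% lower). Counts in the gene lists below are read against these shares, and a count near them does not set a list apart. Between day 1 and hour 6 the difference itself was called for 2773 genes, 19.9% of those tested, 1792 of them higher at day 1 (12.8%) and 981 lower (7.03%). Changes of at least 2-fold were few, 61 rises (0.437%) and 97 falls (0.695%) at 6 hours and 156 rises (1.12%) and 24 falls (0.172%) at day 1. The count for 6 hours was 1036 without replicate 2 of that time, 1070 without replicate 1 at 0 h and 1157 without replicate 2 at 0 h, and the counts for day 1 were 1177 to 1279 without any 1 of its 4 arrays. After quantile normalization the day 1 calls split into 1158 rises and 994 falls, and those between the times into 1407 and 1528, so the excess of rises was smaller at day 1 and absent between the times. Pooled with the gamma arrays, whose median residual SD was 0.165 against 0.108 for the carbon arrays, the same model called 274 genes at 6 hours and 203 at day 1.

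The courses were sorted with the test between the times. A transient gene changed at 6 hours, returned by a called difference and was not called at day 1; 719 genes did so, 334 up (2.39% of those tested) and 385 down (2.76%). A sustained gene was called with the same sign at both times, as for 523 genes, 335 up (2.40%) and 188 down (1.35%), of which 410 showed no called difference between the times, 62 came partly back and 51 moved further. A delayed gene changed at day 1 by a called difference from 6 hours and was not called at 6 hours, as for 773 genes, 557 up (3.99%) and 216 down (1.55%). Another 168 genes turned from one direction to the other, 148 of them down first (1.06%) and 20 up first (0.143%). Calls at 1 time only, without a called difference that would place them, numbered 481 at 6 hours (229 up, 1.64%, and 252 down, 1.81%) and 477 at day 1 (300 up, 2.15%, and 177 down, 1.27%). The 2 arrays of 6 hours did not overlap with the unirradiated ones for 55.5% of genes, and those of day 1 for 56.6%. The sustained genes numbered 293 and 308 without replicate 1 and replicate 2 at 0 h and 335 without replicate 1 of day 1; the transient ones 347 without replicate 2 of hour 6 and 459 without replicate 1 at 0 h. After quantile normalization the transient genes split into 460 up and 338 down, the delayed ones into 444 and 402 and the turned ones into 43 and 139. Delayed genes numbered 494 and 513 without replicate 1 and 2 of day 1, and turned genes 98 and 102 without replicate 1 and 2 at 0 h.

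**Figure D1:**
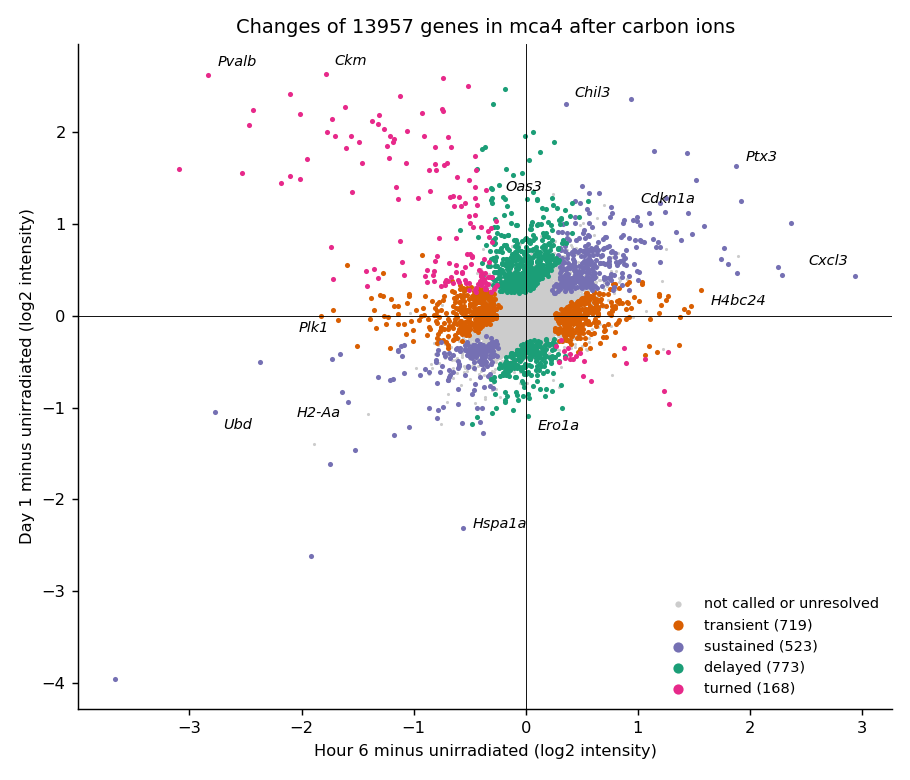
Change at day 1 (vertical axis, log2 intensity) against change at 6 hours (horizontal axis, log2 intensity) for the 13957 genes tested, each point 1 gene, coloured by course. Transient genes lie along the horizontal axis, delayed genes along the vertical axis, sustained genes in the lower left and upper right, and the muscle genes Ckm and Pvalb among the turned genes at the upper left.

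Targets of p53 rose at 6 hours and most of those stayed up at day 1. Of 36 tested members of a list of p53 targets, 18 rose and none fell at 6 hours, and 15 rose and 2 fell at day 1. The list's median change was 0.24 and 0.17, against -0.02 and 0.03 over all genes tested. By course, 12 members were sustained and 4 transient. Cdkn1a, which encodes the cyclin-dependent kinase inhibitor p21, had intensities of 31.3 and 33.9 at 0 h, 63.0 and 66.5 at 6 hours, and 64.5 and 68.4 at day 1. Both irradiated groups lay above the unirradiated one with no overlap, a change of 0.99 ± 0.13 (SE) at 6 hours (adjusted p = 6.05e-07) and 1.03 ± 0.13 at day 1 (adjusted p = 2.59e-07). Ccng1, the gene of cyclin G1, gave 15.8 and 16.3, 33.2 and 32.3, and 29.9 and 26.7 in the same order, changes of 1.03 ± 0.099 and 0.82 ± 0.099. The xylulose reductase gene Dcxr changed by 1.10 ± 0.10 and 1.12 ± 0.10, and Pmaip1, which encodes the cell death protein Noxa, by 0.81 ± 0.095 and 0.59 ± 0.095. The death receptor gene Fas was transient, with 1.20 and 1.33 units at 0 h, 2.31 and 2.93 at 6 hours and 1.504 and 1.73 at day 1. Its change was 1.04 ± 0.15 at 6 hours (adjusted p = 5.05e-06) and 0.35 ± 0.15 at day 1 (adjusted p = 0.128). Ptp4a3, a phosphatase gene, rose by 0.76 and 1.08 on its brightest probe and by 0.94 and 1.21 on a second, while another gave -0.23 and 0.01.

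Not every p53 target moved. Mdm2, whose product marks p53 for degradation, had 75.7 and 65.7 units at 0 h, 80.1 and 62.7 at 6 hours and 84.3 and 74.7 at day 1. Its groups overlapped and its changes of 0.01 ± 0.14 and 0.17 ± 0.14 did not pass (adjusted p = 0.985 and 0.494). Trp53inp1, a p53-induced stress gene, gave 0.12 ± 0.11 and -0.15 ± 0.11, also short of the threshold (adjusted p = 0.533 and 0.431). The members that fell at day 1 were the stress sensor gene Sesn1 (-0.31) and Fos (-0.89), which also stands in the list of immediate early genes. The list count at 6 hours was 11 without replicate 2 at 0 h, that at day 1 was 8 without replicate 1 of day 1, and the fit pooled with the gamma arrays called 9 and 6 rises. In the BCL2 family of death regulators 3 of 13 rose and none fell at 6 hours and 2 rose and 2 fell at day 1. Of all genes tested 6.58% rose and 6.97% fell at 6 hours, and 9.60% and 4.31% at day 1. The death activator gene Hrk gave -0.94 ± 0.20 at day 1 on its brightest probe, and -0.40 and 0.37 on 2 dimmer ones, neither called. The 3 rises numbered 1 without replicate 2 at 0 h or replicate 1 of hour 6, and the 2 rises 1 without either 0 h array or replicate 2 of day 1.

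Genes of mitosis fell together at 6 hours and were back at day 1. Of 50 tested members 38 fell and none rose at 6 hours, with a median of -0.60; at day 1, 11 rose and none fell, with a median of 0.13. The 11 rises numbered 7 without replicate 1 at 0 h, 5 without replicate 2 at 0 h and 4 without replicate 1 of day 1. Between the times 43 rose and none fell. By course 28 were transient and 10 turned. Cdc20, which activates the ubiquitin ligase that starts chromosome separation, had 24.2 and 26.4 units at 0 h, 8.11 and 7.71 at 6 hours, and 24.8 and 24.1 at day 1. Both 6 hour arrays lay far below the other 4, a change of -1.68 ± 0.10 (adjusted p = 1.33e-14), whereas that at day 1 was -0.05 ± 0.10 (adjusted p = 0.832). Plk1, a kinase needed for spindle formation, had 1.83 and 1.69 units at 0 h, 0.679 and 0.419 at 6 hours and 1.79 and 1.88 at day 1. It changed by -1.72 ± 0.15 at 6 hours and 0.06 ± 0.15 at day 1. Fam83d, a spindle protein gene outside the list, had the largest transient fall among genes whose groups did not overlap, with 2.66 and 2.42, 0.749 and 0.684, and 2.62 and 2.44 units in the same order. Cdc25c, the phosphatase gene that activates the mitotic kinase, changed by -1.38 ± 0.11 and 0.20 ± 0.11, and Pttg1, which encodes securin, by -1.43 ± 0.16 and 0.48 ± 0.16. The mitotic kinase gene Aurka gave -1.72 and 0.41 on its brighter probe and -0.15 and -0.46 on the other, so its direction at day 1 differed between probes. The day 1 calls of Pttg1 and of the brighter probe of Aurka were lost without any 1 of the 4 arrays compared. After quantile normalization Pttg1 changed by 0.43 at day 1 and was not called.

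The 250 bases before the start of Cdc20 and Plk1 are shown because these genes carry the mitotic fall; capitals mark the letters CCAAT and TTTGAA, the core of the cell cycle homology region, on either strand. Sequences are from RefSeq on GRCm38.p6, 5′ to 3′ on the gene's strand: Cdc20 at chr4:118437344-118437593, minus strand, and Plk1 at chr7:122159185-122159434, plus strand.
Cdc20: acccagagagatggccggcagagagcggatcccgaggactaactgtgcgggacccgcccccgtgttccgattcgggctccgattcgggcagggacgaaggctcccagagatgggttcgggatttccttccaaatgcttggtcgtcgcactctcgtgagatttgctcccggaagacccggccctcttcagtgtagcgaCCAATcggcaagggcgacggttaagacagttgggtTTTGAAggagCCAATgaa
Plk1: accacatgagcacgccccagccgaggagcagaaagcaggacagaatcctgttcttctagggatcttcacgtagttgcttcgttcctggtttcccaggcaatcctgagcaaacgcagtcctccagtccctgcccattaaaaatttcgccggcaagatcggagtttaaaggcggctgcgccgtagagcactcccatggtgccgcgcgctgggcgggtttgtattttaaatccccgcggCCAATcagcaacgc
In Cdc20 the matches begin 53, 18 and 8 bases before the start, and in Plk1 a single CCAAT begins 14 bases before it. Promoters were found for 40 of the 50 mitosis genes, 43 promoters in all. CCAAT stood in 79.1% of these and TTTGAA in 44.2%, against 34.4 and 11.7% of the 14047 promoters of all genes tested. The E2F letters TTTCCCGC or TTTGGCGC stood in 2.33%, against 2.07%, and GGGCGG, the SP1 letters, in 69.8%, against 51.5%. The letters TGACGTCA (CRE) and TGANTCA (AP-1) stood in none of the 43, against 2.26 and 5.35%. These matches describe the letters only.

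Genes of DNA replication did not share the mitotic fall. Of 43 tested members 1 rose and none fell at 6 hours, with a median of 0.01, and 1 rose and 2 fell at day 1, with a median of -0.05. The cyclin E genes moved at day 1: Ccne2 fell by 0.70 ± 0.13, and Ccne1 gave 0.36 ± 0.080 at 6 hours and -0.46 ± 0.080 at day 1. Of 46 DNA repair and checkpoint genes 4 rose and 4 fell at 6 hours, and 1 rose and 3 fell at day 1. Over all genes 6.58% rose and 6.97% fell at 6 hours, and 9.60% and 4.31% at day 1, so these counts do not set the list apart. The 4 rises and 4 falls at 6 hours numbered 2 and 2 without replicate 1 at 0 h, 1 and 2 without replicate 2 at 0 h and 2 and 2 without replicate 2 of hour 6. Chek2, a checkpoint kinase gene, changed by -0.59 ± 0.10 at 6 hours and -0.05 ± 0.10 at day 1, and Ung, a uracil glycosylase gene, by -0.61 ± 0.12 and -0.96 ± 0.12. Lig4, the ligase gene of end joining, rose by 0.47 ± 0.099 at 6 hours. Among 8 histone genes 3 rose at 6 hours and 1 at day 1. H4bc24, a histone H4 gene outside that list, led the transient rises, with 2.15 and 2.396 units at 0 h, 6.55 and 6.92 at 6 hours and 2.84 and 2.68 at day 1 (changes of 1.57 ± 0.12 and 0.28 ± 0.12). The proliferation gene Mki67 had no value on the 6 arrays and was not tested.

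**Figure D2:**
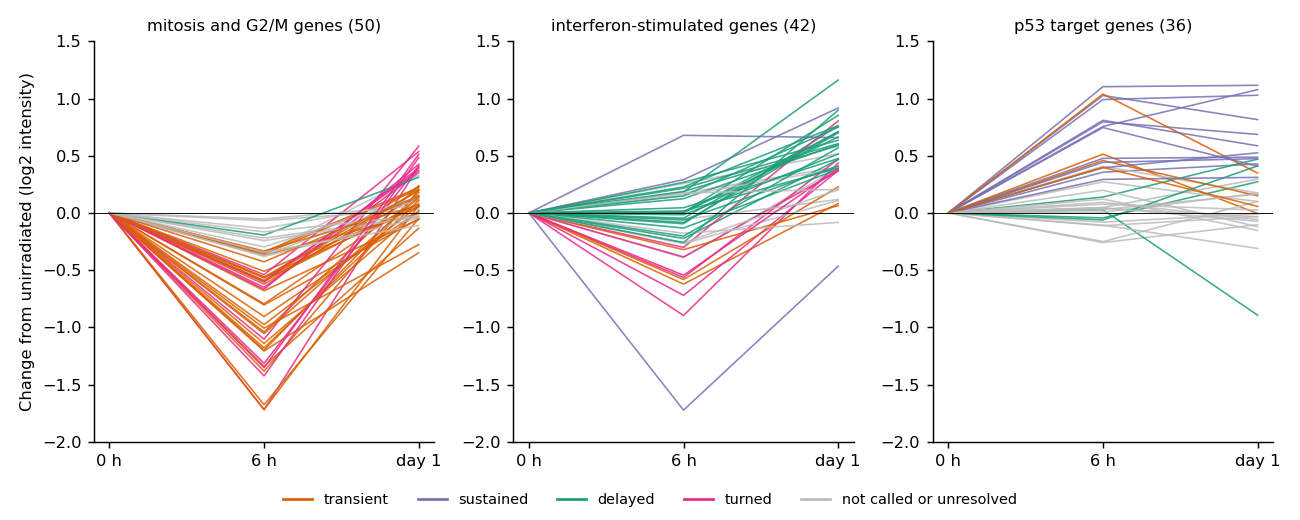
Change from unirradiated mca4 (vertical axis, log2 intensity) at 0 h, 6 hours and day 1 for each tested member of 3 lists, 1 line per gene, coloured by course. Mitosis genes dip at 6 hours and return, interferon-stimulated genes rise at day 1, and p53 targets split into a group that stays up and a group near 0.

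Interferon-stimulated genes were mostly delayed. At 6 hours 2 of 42 tested members rose and 10 fell, with a median of -0.06; at day 1, 32 rose and 1 fell, with a median of 0.47. By course 21 were delayed, 6 turned, 3 transient and 3 sustained. Oas3, which encodes a sensor enzyme of double-stranded RNA, had 3.19 and 2.84 units at 0 h, 3.48 and 3.35 at 6 hours, and 7.32 and 6.19 at day 1. The day 1 arrays were the highest, with a change of 1.16 ± 0.11 (adjusted p = 1.49e-09), against 0.18 ± 0.11 at 6 hours (adjusted p = 0.31); a dimmer probe gave 0.16 at day 1. Zbp1, a nucleic acid sensor gene, had 51.2 and 44.5 units at day 1 against 27.7 and 23.7 at 0 h, a change of 0.90 ± 0.11. The antiviral gene Mx1 changed by 0.92 ± 0.10 at day 1. Irf7, the gene of an interferon regulatory factor, changed by 0.71 and the sensor gene Dhx58 by 0.76 at day 1.

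The members that fell at 6 hours included chemokines of T cell attraction. Cxcl9 had 45.4 and 37.0 units at 0 h, 12.3 and 12.5 at 6 hours and 30.4 and 29.1 at day 1, changes of -1.72 ± 0.10 and -0.47 ± 0.10. Without replicate 1 at 0 h the day 1 change of Cxcl9 was -0.32 and not called (adjusted p = 0.11). Cxcl11 fell by 0.90 ± 0.13 at 6 hours and was 0.44 ± 0.13 higher at day 1, a call lost without replicate 2 at 0 h (adjusted p = 0.135) or replicate 1 of day 1 (adjusted p = 0.131). Gbp4, the gene of an interferon-inducible GTPase outside the list, was transient with 10.4 and 10.5, 3.71 and 4.27, and 10.5 and 9.86 units at 0 h, 6 hours and day 1. Ubd, a ubiquitin-like gene induced by inflammatory cytokines, fell at both times, with 3.21 and 3.08 units at 0 h, 0.510 and 0.418 at 6 hours and 1.45 and 1.59 at day 1. The 10 falls at 6 hours became 6 without replicate 1 at 0 h or without replicate 2 of hour 6, and the fit pooled with the gamma arrays called 5 of the rises at day 1.

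The promoter of Oas3 is shown as that of the most changed interferon-stimulated gene of the delayed course with a RefSeq entry; capitals mark the interferon response letters, GAAA followed after any 2 bases by GAAA, 75 bases before the start, on GRCm38.p6 at chr5:120777660-120777909, minus strand.
Oas3: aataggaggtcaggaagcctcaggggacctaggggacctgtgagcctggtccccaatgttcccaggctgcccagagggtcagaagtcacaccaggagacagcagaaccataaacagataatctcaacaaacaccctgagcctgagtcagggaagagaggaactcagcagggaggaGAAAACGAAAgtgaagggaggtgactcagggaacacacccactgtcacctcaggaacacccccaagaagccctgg
These letters stood, on either strand, in 32.4% of the 37 promoters of 33 interferon-stimulated genes, against 2.6% of the promoters of all genes tested. TGANTCA stood in 21.6% of them, against 5.35%.

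Chemokine and acute inflammation genes rose at 6 hours, and the largest rises were smaller at day 1. Of 40 tested members 16 rose and 1 fell at 6 hours, with a median of 0.25, and 12 rose and 7 fell at day 1, with a median of 0.11. Cxcl3, a neutrophil-attracting chemokine gene, had 1.38 and 1.43 units at 0 h, 10.9 and 10.7 at 6 hours and 1.89 at day 1 on both arrays. That is a change of 2.94 ± 0.11 at 6 hours (adjusted p = 1.27e-19) and 0.43 ± 0.11 at day 1 (adjusted p = 0.00677). Without replicate 1 at 0 h the day 1 change of Cxcl3 was 0.40 and not called (adjusted p = 0.0664). Cxcl2, of the same family, had 6.84 and 7.21 units at 0 h, 33.1 and 33.6 at 6 hours and 10.5 and 9.87 at day 1. The monocyte chemokine genes Ccl3 and Ccl2 changed by 1.89 ± 0.094 and 1.60 ± 0.11 at 6 hours, and by 0.47 ± 0.094 and 0.98 ± 0.11 at day 1. Il6, an inflammatory cytokine gene, was transient, with 1.10 at 6 hours and -0.33 at day 1 (adjusted p = 0.0783). Saa3, an acute phase gene, moved further, by 0.66 ± 0.11 and 1.34 ± 0.11, and so did the T cell chemokine gene Ccl5, by 0.48 and 1.23. Il1b, the gene of interleukin 1 beta, and Cxcl5 turned, with 0.88 and 0.90 at 6 hours and -0.35 and -0.51 at day 1. The 7 falls at day 1 numbered 3 without replicate 1 at 0 h, 4 without replicate 2 at 0 h, 4 without replicate 1 of day 1 and 3 without replicate 2 of day 1.

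Among further genes of signalling and inflammation, Ptx3, which encodes the secreted pattern recognition protein pentraxin 3, was the first of the sustained rises when ranked by the smaller of a gene's 2 changes among genes without overlap. It had 0.442 and 0.421 units at 0 h, 1.52 and 1.66 at 6 hours, and 1.40 and 1.27 at day 1, with changes of 1.88 ± 0.098 and 1.63 ± 0.098. Pf4, a platelet chemokine gene, had 1.61 and 1.47 units at 0 h, 6.39 and 5.26 at 6 hours and 3.56 and 3.73 at day 1, both irradiated groups above the unirradiated one. Rgs1, a regulator gene of G protein signalling in leukocytes, and A2m, a protease inhibitor gene, were transient, with 1.45 ± 0.18 and 1.41 ± 0.21 at 6 hours. Il7r, a cytokine receptor gene, rose by 1.21 ± 0.10 at 6 hours and its second probe by 0.71. Of 26 genes of TNF ligands and receptors 4 rose and 5 fell at 6 hours, and 5 rose and 2 fell at day 1. The shares over all genes were 6.58% and 6.97% at 6 hours, and 9.60% and 4.31% at day 1. The 4 rises numbered 2 without replicate 2 at 0 h, and the 5 rises 3 without that array or without replicate 1 of day 1. Cd40, a receptor gene of antigen-presenting cells, was delayed at 0.67 ± 0.12.

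Genes of host cells in the tumour moved in different directions. Of 37 fibroblast and matrix genes 17 rose and none fell at 6 hours, and 16 rose and 1 fell at day 1, with medians of 0.28 and 0.30; 11 were sustained. Dcn, which encodes the collagen-binding proteoglycan decorin, had 4.16 and 4.32 units at 0 h, 9.92 and 9.49 at 6 hours, and 10.1 and 9.72 at day 1, all 4 irradiated arrays above both unirradiated ones (1.20 ± 0.11 and 1.23 ± 0.11). Lum, the gene of the related lumican, changed by 1.25 ± 0.093 and 1.28 ± 0.093, and the matrix protease gene Mmp3 by 1.48 ± 0.085 and 0.89 ± 0.085. The list's rises at 6 hours numbered 10 without replicate 2 of hour 6 and 11 without replicate 2 at 0 h. Those at day 1 numbered 10 without replicate 2 at 0 h and 10 without replicate 1 of day 1, and the fit pooled with the gamma arrays called 1 and 0.

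Neutrophil genes rose in 5 of 13 at each time, with no fall at 6 hours and 1 at day 1. The 5 rises at day 1 numbered 2 without replicate 1 at 0 h or replicate 1 of day 1. The neutrophil collagenase gene Mmp8 changed by 1.77 ± 0.11 and 0.74 ± 0.11, and the calgranulin gene S100a9 by 0.72 ± 0.10 and 0.41 ± 0.10. The day 1 change of S100a9 was 0.304 without replicate 1 at 0 h and 0.352 without replicate 1 of day 1, not called in either fit. Of 23 macrophage genes 5 rose and 7 fell at 6 hours, and 6 rose and none fell at day 1. At 6 hours the rises numbered 2 or 3 without any 1 of the 4 arrays, and the falls 3 without either 0 h array and 2 without replicate 2 of hour 6; the day 1 rises numbered 3 without replicate 2 at 0 h or replicate 1 of day 1. Chil3, a chitinase-like gene of alternatively activated macrophages, had 0.365 and 0.362 units at 0 h, 0.502 and 0.432 at 6 hours and 1.86 and 1.74 at day 1; the day 1 arrays were the highest, a change of 2.31 ± 0.11. Mmp12, the macrophage elastase gene, was transient (0.96 ± 0.10). Of the 23 macrophage genes 8 followed skeletal muscle over the other 34 carbon arrays (r over 0.7), against 4.64% of all genes tested; the part of muscle in these changes was not tested. Of 20 endothelial genes 1 rose and 2 fell at 6 hours, where 6.58% of all genes rose and 6.97% fell. At day 1, 6 rose, against 9.60% of all genes, among them Vwf, the von Willebrand factor gene, at 0.56 ± 0.11. These 6 numbered 2 without replicate 2 at 0 h and 1 without replicate 1 of day 1.

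T and NK cell genes and MHC class II genes fell at 6 hours. Of 22 T and NK cell genes 13 fell and 1 rose at 6 hours, with a median of -0.53, and 4 fell and 1 rose at day 1, with a median of -0.05. Gzma, a killer cell protease gene, had 1.59 and 1.60 units at 0 h, 0.639 and 0.610 at 6 hours and 1.79 and 1.56 at day 1, lowest on the 6 hour arrays. Cd3g, a subunit of the T cell receptor complex, changed by -0.95 ± 0.10 and -0.04 ± 0.10. Gzmg, a granzyme gene outside the list, fell at both times, with 0.747 and 0.652 units at 0 h, 0.162 and 0.267 at 6 hours and 0.233 and 0.223 at day 1. The 4 falls at day 1 numbered 0 to 2 when any 1 of the 4 arrays was left out. Of 8 MHC class II genes 6 fell at 6 hours and 4 at day 1, with none rising and medians of -0.85 and -0.47. H2-Aa, an antigen-presenting chain, had 40.8 and 38.1 units at 0 h, 15.8 and 11.0 at 6 hours and 22.7 and 18.5 at day 1 (-1.58 ± 0.15 and -0.94 ± 0.15). Its chaperone gene Cd74 changed by -1.21 ± 0.11 and -0.70 ± 0.11. Ighm, the immunoglobulin M heavy chain gene, changed by -1.04 ± 0.10 and -1.21 ± 0.10, and 2 of its 4 other probes fell at both times while 2 dim ones did not. Over the other 34 carbon arrays, 11 of the 22 T and NK cell genes and 6 of the 8 class II genes followed the level of skeletal muscle (r over 0.7), against 4.64% of all genes tested; the part of muscle in these falls was not tested.

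Skeletal muscle RNA itself differed between the 3 groups. The mean log2 level of 33 muscle genes was 1.38 and 1.35 at 0 h, 0.338 and 0.312 at 6 hours, and 2.98 and 2.88 at day 1. At 6 hours 27 of them fell and 1 rose, and at day 1, 30 rose and none fell, with medians of -0.86 and 1.66; 26 turned. Ckm, the muscle creatine kinase gene, had 1.35 and 1.41 units at 0 h, 0.402 and 0.399 at 6 hours, and 9.41 and 7.76 at day 1. The calcium buffer gene Pvalb changed by -2.83 ± 0.12 and 2.63 ± 0.12. The arrays of a group differed in the muscle mean by at most 0.269 log2 in all 20 carbon groups, while group means ran between 0.325 and 4.02. Genes that followed muscle over the other 34 arrays made up 4.64% of all genes tested. Their share was 45.8% of the turned, 7.51% of the transient, 5.54% of the sustained and 8.15% of the delayed genes. By direction they were 10 of 334 transient rises and 44 of 385 transient falls. Among sustained genes they were 9 of 335 rises and 20 of 188 falls, and among delayed genes 56 of 557 rises and 7 of 216 falls. Without all 647 such genes, 644 transient, 475 sustained, 693 delayed and 88 turned genes were called. None of the mitosis or interferon-stimulated genes followed muscle, 1 of the p53 targets did, none of the fibroblast and matrix genes and 8 of the 23 macrophage genes. Only positive r over 0.7 was counted, so a gene that ran against muscle, such as Plk1 (r = -0.578) or Cdc20 (r = -0.444), could not be. The part of muscle in the changes of these lists was not tested. In the fit pooled with the gamma arrays no muscle gene was called at either time.

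**Figure D3:**
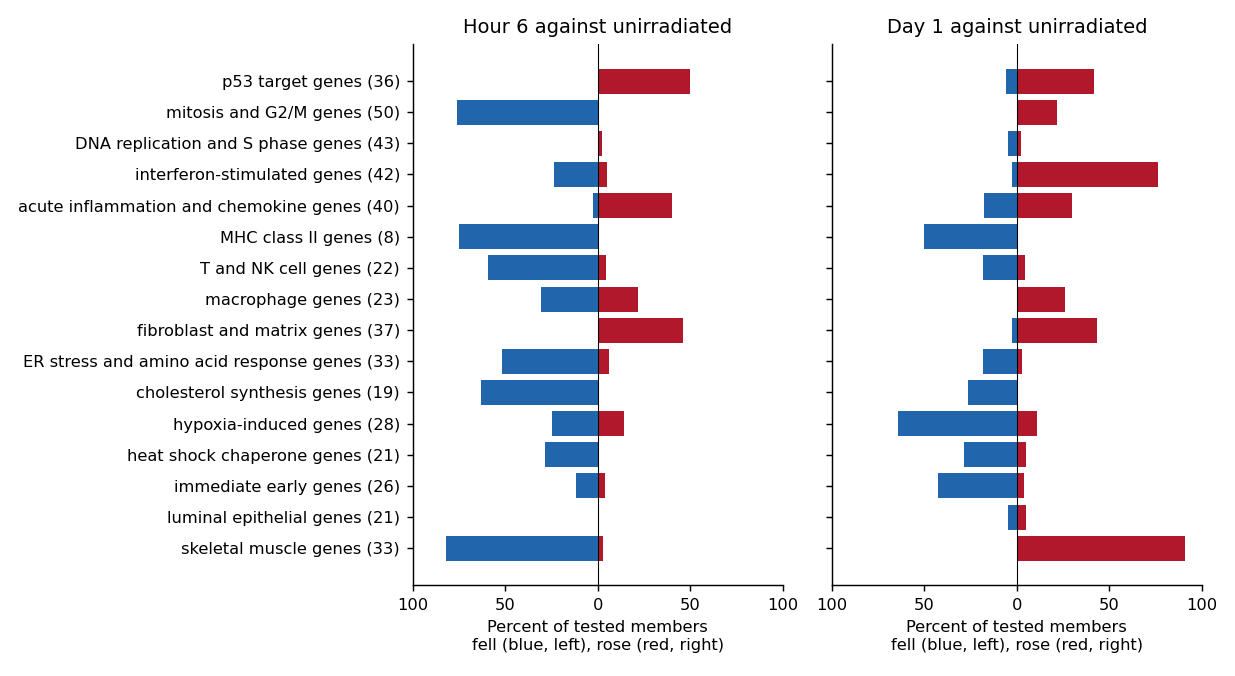
Share of tested members that rose (red, right of 0) or fell (blue, left of 0) at 6 hours and at day 1 for 16 gene lists (number tested in brackets), in percent. Mitosis genes fall at 6 hours, interferon-stimulated genes rise at day 1, and skeletal muscle genes fall at 6 hours and rise at day 1.

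Several delayed rises were of genes that followed muscle over the other carbon arrays, by the same measure. The part of muscle in these rises was not tested. Wfdc1, a secreted protease inhibitor gene (r = 0.943), Sln, which encodes the calcium pump regulator sarcolipin (r = 0.77), Rbm24, a muscle splicing gene (r = 0.9), and Prkaa2, an AMP kinase subunit gene (r = 0.834), changed by 2.30 ± 0.14, 2.0 ± 0.10, 1.90 ± 0.28 and 1.82 ± 0.21 at day 1. Ankrd1, a stretch response gene of muscle, changed by 1.85 ± 0.13 (r = 0.534). Orm2, an acute phase gene, had 0.692 and 0.586 units at day 1 against 0.101 and 0.264 at 0 h. Myom2, a sarcomere gene (r = 0.879), was the muscle gene among the largest transient falls, with -1.60 ± 0.37 at 6 hours. Its 2 unirradiated arrays read 0.730 and 0.152 units, far apart, and the 6 hour arrays 0.142 and 0.0858. Without replicate 2 of hour 6, whose value was at the floor, its change was -1.23 and not called. Fits of only the mca4 carbon arrays or only the 6 arrays did not call it either. Cryab, a small chaperone gene abundant in muscle, rose by 1.23 ± 0.11 at day 1 (r = 0.731).

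Stress and metabolic genes fell in part at 6 hours and in part at day 1. Of 33 ER stress and amino acid response genes 17 fell and 2 rose at 6 hours, with a median of -0.30, and 6 fell and 1 rose at day 1; 12 were transient. Herpud1, a gene of ER-associated degradation, had 5.57 and 5.92 units at 0 h, 3.34 and 2.76 at 6 hours and 6.00 and 6.22 at day 1. Only the 6 hour arrays were low (-0.92 ± 0.15, adjusted p = 2.63e-05). Sdf2l1, an ER chaperone partner, changed by -0.80 ± 0.10 at 6 hours and 0.01 ± 0.10 at day 1. The 17 falls became 8 without replicate 2 of hour 6 and 10 without replicate 1 at 0 h, and the 6 at day 1 became 2 without replicate 1 at 0 h and 3 without replicate 2 of day 1. Both promoters, shown as those of the 2 largest transient falls in this list, hold CCAAT (capitals, either strand) on GRCm38.p6 at chr8:94386179-94386428, plus strand, for Herpud1 and chr16:17132384-17132633, minus strand, for Sdf2l1.
Herpud1: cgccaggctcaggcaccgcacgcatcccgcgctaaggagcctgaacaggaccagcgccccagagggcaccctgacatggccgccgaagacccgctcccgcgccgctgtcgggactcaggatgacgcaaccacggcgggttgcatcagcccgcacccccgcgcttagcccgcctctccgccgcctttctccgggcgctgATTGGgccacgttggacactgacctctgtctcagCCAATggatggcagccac
Sdf2l1: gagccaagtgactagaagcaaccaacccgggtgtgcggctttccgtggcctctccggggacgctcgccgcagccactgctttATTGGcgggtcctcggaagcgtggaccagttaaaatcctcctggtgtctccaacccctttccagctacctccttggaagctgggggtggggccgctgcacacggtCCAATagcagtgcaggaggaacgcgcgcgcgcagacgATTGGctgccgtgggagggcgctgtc
CCAAT stood in 67.7% of the 31 promoters of 29 genes of this list, against 34.4% of the promoters of all genes tested. It also stood in 55.9% of the 34 promoters of the p53 targets, a list that rose at 6 hours. The share was 38.5% for heat shock chaperone, 32.4% for interferon-stimulated and 13.2% for acute inflammation and chemokine genes.

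Of 19 cholesterol synthesis genes 12 fell and none rose at 6 hours, and 5 fell and none rose at day 1, with medians of -0.39 and -0.18. Mvd, a mevalonate pathway enzyme gene, changed by -0.73 ± 0.11 and -0.40 ± 0.11. The 12 falls became 6 without replicate 1 at 0 h or replicate 2 of hour 6, and the 5 falls at day 1 became 0 without replicate 1 at 0 h, 2 without replicate 2 at 0 h or replicate 2 of day 1, and 3 without replicate 1 of day 1. Of 22 fatty acid synthesis genes 8 fell and 1 rose at 6 hours, and 3 fell and 4 rose at day 1. The shares over all genes were 6.97% and 6.58% at 6 hours, and 4.31% and 9.60% at day 1. The 8 falls numbered 5 without replicate 1 at 0 h or replicate 2 of hour 6, and the 4 rises 2 without replicate 1 at 0 h or replicate 1 of day 1. The desaturase gene Fads2 changed by -0.73 ± 0.12 and -0.08 ± 0.12.

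Hypoxia-induced genes fell mainly at day 1: of 28, 7 fell and 4 rose at 6 hours, and 18 fell and 3 rose at day 1, with medians of -0.16 and -0.41. Ero1a, an oxidase gene of protein folding, had 79.8 and 78.0 units at 0 h, 77.1 and 83.2 at 6 hours, and 35.7 and 38.4 at day 1. Only the day 1 arrays were low, at -1.09 ± 0.10 (adjusted p = 4.18e-10), on the brightest of its 3 probes; the 2 dim ones gave 0.62 and -0.07. Adm, the adrenomedullin gene, changed by -1.01 ± 0.12 and the stress gene Ndrg1 by -1.01 ± 0.11 at day 1, both probes of Ndrg1 falling. Vegfa, the main angiogenic growth factor gene, changed by -0.48 and -0.85. The 7 falls at 6 hours became 1 without replicate 1 at 0 h or replicate 2 of hour 6. The 18 falls became 11 without replicate 2 of day 1 and 2 in the fit pooled with the gamma arrays. Of 17 glycolysis genes 2 fell at 6 hours, and 6 fell and 1 rose at day 1. Of all genes tested 6.97% fell at 6 hours, and 4.31% fell and 9.60% rose at day 1. The platelet phosphofructokinase gene Pfkp changed by -0.62 ± 0.098, and the 6 glycolysis falls became 3 without replicate 2 at 0 h.

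Of 21 heat shock chaperone genes 6 fell and none rose at 6 hours, and 6 fell and 1 rose at day 1. The 6 hour falls numbered 3 without replicate 1 at 0 h and 2 without replicate 2 of hour 6. Hspa1a, an inducible chaperone gene of the HSP70 family, had 44.4 and 52.3 units at 0 h, 34.6 and 30.9 at 6 hours, and 9.22 and 10.3 at day 1, changes of -0.56 ± 0.11 and -2.31 ± 0.11. Its near-identical copy Hspa1b, whose transcripts a probe may not tell apart, had 76.9 and 78.8 units at day 1 against 152.8 and 160.0 at 0 h. Hsph1, an HSP70 partner, changed by -0.78 ± 0.13 and -1.02 ± 0.13. Of 26 immediate early genes, which growth factors induce within minutes, 3 fell and 1 rose at 6 hours, and 11 fell and 1 rose at day 1. The matrix protein genes Ccn1 and Ccn2 changed by -1.16 ± 0.097 and -0.81 ± 0.10 at day 1, and Fos by -0.89 ± 0.17. The 11 falls became 7 without replicate 1 at 0 h.

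In the list of oxidative stress genes 2 of 27 rose and 1 fell at 6 hours, and 6 rose and 2 fell at day 1. Over all genes 6.58% rose and 6.97% fell at 6 hours, and 9.60% and 4.31% at day 1. Gpx3, a secreted glutathione peroxidase gene, changed by 1.12 ± 0.093 at day 1 and the haem oxygenase gene Hmox1 by 0.54 ± 0.11 and 0.48 ± 0.11. Of 19 glucocorticoid-induced genes 5 rose and 2 fell at 6 hours, and 2 rose and 5 fell at day 1; Map3k6, a stress kinase gene, was transient at 1.19 ± 0.11. The 5 rises numbered 3 without replicate 2 at 0 h or either 6 hour array, and the 5 falls 2 without replicate 1 at 0 h and 3 without either day 1 array. Of 18 clock genes 2 rose and 3 fell at 6 hours and 3 fell at day 1. The 2 rises numbered 0 without replicate 1 at 0 h or replicate 2 of hour 6 and 1 without either other array, and the falls 1 without replicate 1 at 0 h at both times and 1 at day 1 without replicate 2 of day 1. Counts in lists of growth factor pathways were small, where 13.5% of all genes were called at 6 hours and 13.9% at day 1. At 6 hours none of 10 ErbB genes was called. Wnt pathway genes had 1 rise and 3 falls of 25, and TGF-beta and BMP genes 1 and 1 of 24. At day 1 these lists had, in the same order, 1 rise and 1 fall, 3 rises, and 3 rises and 1 fall. The Wnt ligand gene Wnt4 changed by 0.94 ± 0.12 at day 1 on its brighter probe, and 0.06 on the other.

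Housekeeping lists had few calls. Of 34 ribosomal protein genes 1 rose at each time, of 34 proteasome genes 1 fell at 6 hours and 1 rose at day 1, and of 44 respiratory chain genes none was called by limma at either time, the largest change being that of the complex I gene Ndufb9 at day 1 (0.46, adjusted p = 0.0739). Epithelial lists had small counts, where 6.58% of all genes rose and 6.97% fell at 6 hours, and 9.60% and 4.31% at day 1. Of 21 luminal genes none was called at 6 hours, and 1 rose and 1 fell at day 1: Muc1, a mucin gene, changed by 0.99 ± 0.079 and Krt19 by -0.51 ± 0.14. The call of Krt19 was lost without replicate 1 at 0 h (adjusted p = 0.108) or replicate 2 of day 1 (adjusted p = 0.105). Of 21 basal and stratified epithelial genes 3 rose at 6 hours, and 1 rose and 2 fell at day 1. The 3 rises numbered 0 without replicate 2 at 0 h and 1 without any of the other 3 arrays, and 5 with the replicate block; the 2 falls numbered 1 without either 0 h array or replicate 2 of day 1, and 6 with the block. Trp63, a basal cell transcription factor gene, changed by -0.76 ± 0.11 at day 1 on one probe and 0.33 on the other. Of 9 B and plasma cell genes 1 fell at 6 hours, and 3 rose and 1 fell at day 1. Among 11 mast cell and eosinophil genes 1, the histidine decarboxylase gene Hdc, rose at both times. Without replicate 2 at 0 h the 6 hour change of Hdc was 0.245 and not called. Of 6 adipocyte genes 2 fell at 6 hours and 2 rose at day 1, 2 of the 6 following muscle. None of 5 red blood cell genes was called by limma, the largest change being that of Gata1 at day 1 (0.47, adjusted p = 0.373).

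Further small counts in these lists also moved with single arrays. The 4 repair rises at 6 hours numbered 1 without replicate 2 at 0 h and 2 without replicate 1 at 0 h or replicate 2 of hour 6. At the same time the 2 interferon rises numbered 1 without either 0 h array or replicate 2 of hour 6, the 3 Wnt falls 1 without replicate 1 at 0 h, and the 2 glycolysis falls 0 without either 0 h array or replicate 2 of hour 6. The 2 ER stress rises numbered 1 without either 0 h array and 0 without replicate 1 of hour 6, the 2 glucocorticoid falls 0 without replicate 2 of hour 6 and 1 without any other array, the 2 endothelial falls 0 without replicate 1 at 0 h and 1 without replicate 2 of either group, and the 2 adipocyte falls 1 without replicate 2 at 0 h or either 6 hour array. At day 1 the 2 p53 falls numbered 1 and the 2 TNF falls 0 without any 1 of the 4 arrays, the 3 repair falls 1 without replicate 2 at 0 h or replicate 1 of day 1, the 3 TGF-beta rises 1 without replicate 2 at 0 h, and the 3 fatty acid falls 1 without replicate 1 of day 1. The 2 glucocorticoid rises numbered 0 without replicate 2 at 0 h or either day 1 array, and the 2 adipocyte rises 1 without replicate 2 at 0 h or replicate 1 of day 1. With the replicate block, repair genes had 7 rises, Wnt genes 5 falls, glycolysis genes 5 falls, oxidative stress genes 5 rises, immediate early genes 3 rises and luminal genes 2 rises at 6 hours. At day 1 it gave 5 falls of replication genes, 4 of TNF genes and 5 of fatty acid genes, 3 rises of proteasome genes and 2 of respiratory chain genes; a single call became 2 in 6 other counts.

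A few leading genes belong to none of these lists. Ccnb1ip1, a ubiquitin ligase gene that acts on cyclin B, was a sustained fall, with 4.46 and 4.32 units at 0 h, 1.94 and 1.95 at 6 hours and 1.94 and 1.64 at day 1. Klk6, a secreted protease gene, was 1.10 ± 0.17 lower at day 1, and S100a7a, an epidermal calcium-binding gene, 1.02 ± 0.13 lower. P2ry10, a lymphocyte receptor gene that followed muscle elsewhere (r = 0.816), was 1.18 ± 0.21 lower at day 1. The olfactory receptor gene Olfr1161 was nominally the largest sustained fall, but 1 unirradiated array read 27.45 units and the other 0.2475, and the 4 irradiated arrays read 0.151 to 0.2468.

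**Figure D4:**
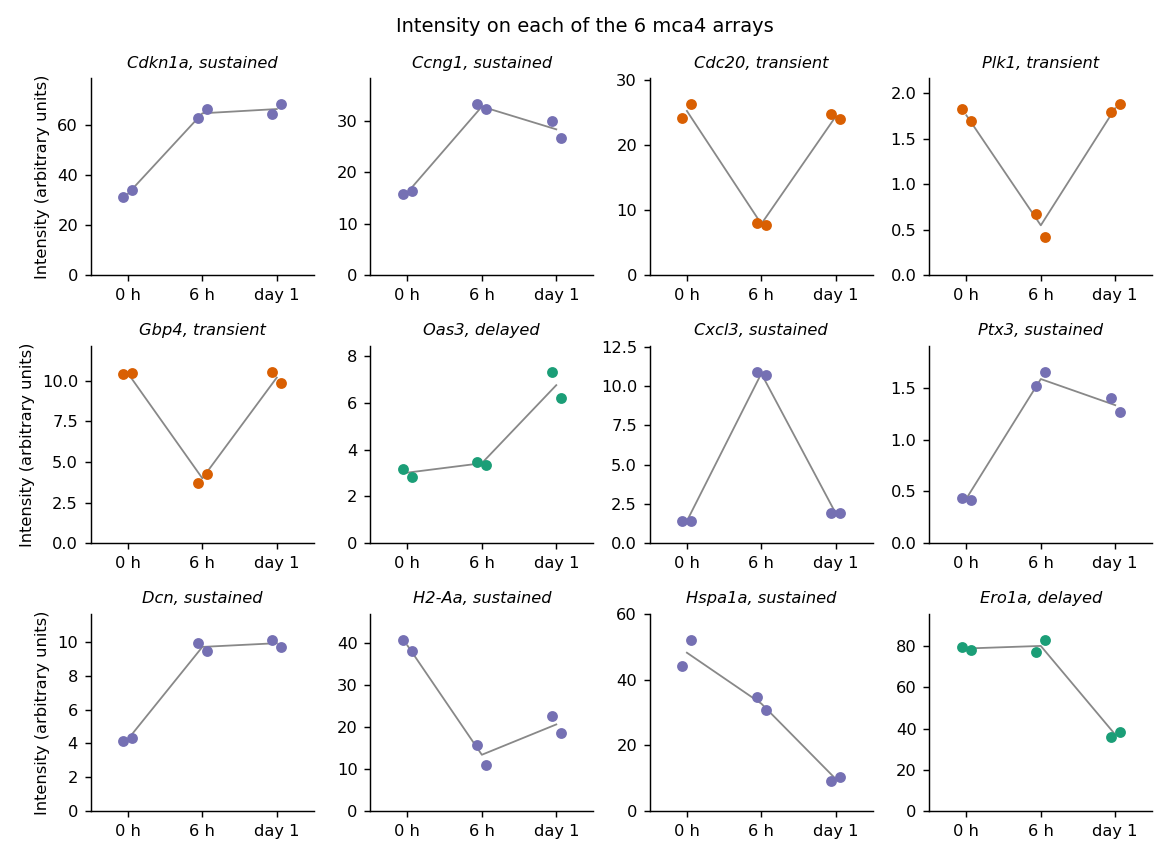
Intensity (arbitrary units, linear axis from 0) of 12 genes on each of the 6 mca4 arrays at 0 h, 6 hours and day 1; points are single arrays, coloured by course, and the line joins the group means. Cdc20, Plk1 and Gbp4 dip at 6 hours, Cdkn1a, Ccng1, Ptx3 and Dcn stay up, and Oas3 and Ero1a move at day 1.

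The change in mca4 was set against that in mmca, the other spontaneous mammary carcinoma of the series, sampled at the same times after the same dose of carbon ions (6 arrays). The difference between the tumours was called for 534 genes at 6 hours (3.83%), 186 higher (1.33%) and 348 lower (2.49%) in mca4, and 1144 at day 1 (8.20%), 759 higher (5.44%) and 385 lower (2.76%). After quantile normalization the day 1 calls split into 514 and 570, and in the fit pooled with the gamma arrays 0 and 20 were called. With replicate number as a block the counts were 871 and 1792. Without replicate 1 at 0 h or replicate 2 of hour 6 of mca4, or replicate 1 or 2 of hour 6 of mmca, the 6 hour count was 331, 334, 333 and 310, and without replicate 2 at 0 h or replicate 1 of day 1 of mmca the day 1 count was 726 and 676. In mmca itself 1255 genes rose (8.99%) and 1284 fell (9.20%) at 6 hours, 18.2% in all, and 1258 rose (9.02%) and 1667 fell (11.9%) at day 1, 21.0% in all. The muscle mean of mmca was 1.71 and 1.76 at 0 h, 1.06 and 1.10 at 6 hours and 1.46 and 1.51 at day 1, and 30 of the 33 muscle genes differed at day 1.

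Of the 36 p53 targets 2 were called lower in mca4 than in mmca at 6 hours and none higher. Cdkn1a changed by 0.99 in mca4 and 1.13 in mmca, a difference of -0.14 ± 0.18 (adjusted p = 0.794), and Plk1 by -1.72 and -1.50, a difference of -0.22 ± 0.21 (adjusted p = 0.682). No mitosis gene of 50 differed by a called amount at 6 hours, where their median was -0.60 in mca4 and -0.61 in mmca. Mdm2 changed by 0.01 in mca4 and 0.61 in mmca, a difference of -0.60 ± 0.20 that did not pass (adjusted p = 0.0855). Other lists parted at 6 hours, where 2.49% of all genes were lower in mca4 and 1.33% higher. Lower were 4 of 8 MHC class II, 5 of 13 neutrophil and 5 of 21 basal epithelial genes, with none higher. Of 37 fibroblast and matrix genes 7 were lower and 1 higher, and of 40 acute inflammation genes 6 and 1. Muscle genes had 13 lower and 5 higher of 33, and interferon-stimulated genes 1 and 4 of 42. At day 1, where 2.76% of all genes were lower and 5.44% higher, the tumours also parted. DNA replication genes had a median of -0.05 in mca4 and -0.46 in mmca, where 27 of 43 fell, and 14 differed, all higher in mca4. Of cholesterol synthesis genes 8 of 19 and of interferon-stimulated genes 8 of 42 differed, all higher in mca4, and of 21 basal epithelial genes 9 differed, all lower in mca4. Of 28 hypoxia-induced genes 8 were lower and 1 higher. T and NK cell genes had 9 higher and 1 lower of 22, and fatty acid synthesis genes 8 and 1 of 22. Fibroblast and matrix genes had 10 higher and 2 lower of 37, and acute inflammation genes 7 and 3 of 40. In the T and NK cell list 11 genes followed muscle over the other carbon arrays, and the part of muscle in these differences was not tested. Ptx3 changed by 1.88 in mca4 against 3.91 in mmca at 6 hours, and by 1.63 against 0.32 at day 1.

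**Figure D5:**
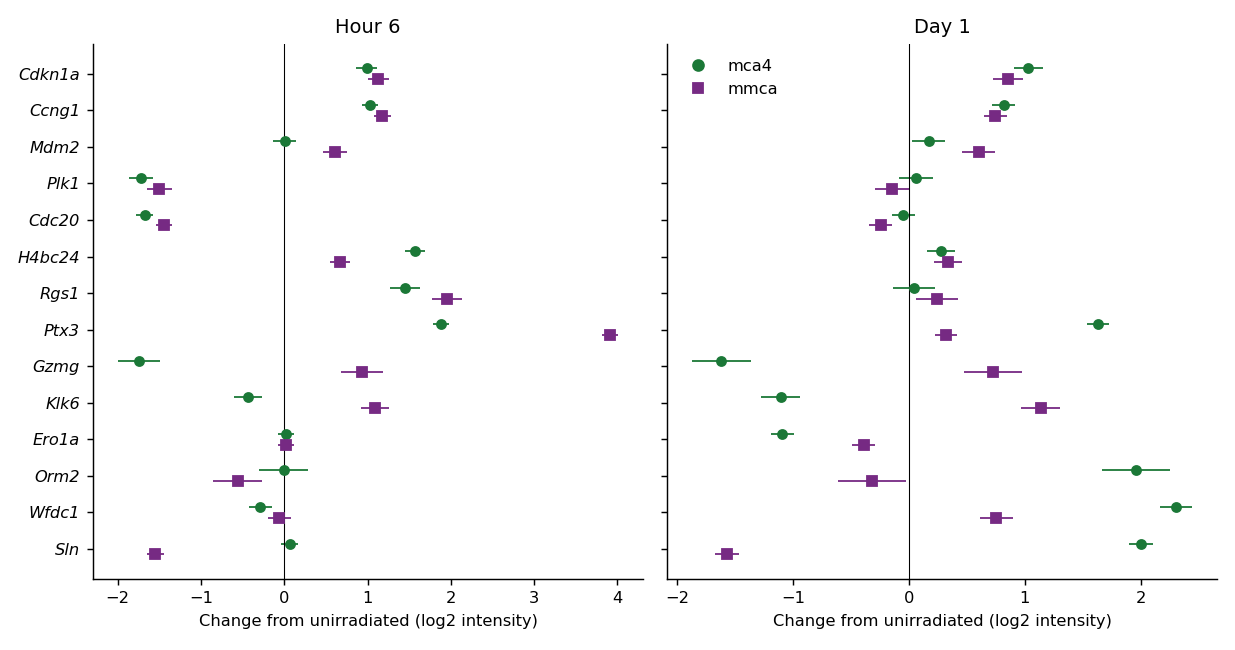
Change from unirradiated tumours of the same line (horizontal axis, log2 intensity) at 6 hours and day 1 for 14 genes in mca4 (green circles, above) and mmca (purple squares, below); bars are the SE of the limma model. Points lie near each other for Cdkn1a, Ccng1, Plk1 and Cdc20 and apart for Ptx3, Gzmg, Klk6 and Sln.

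The day 1 change after carbon ions was also set against that in mca4 1 day after 30 Gy of gamma rays, each against unirradiated mca4 of its own experiment (2 gamma arrays and 2 controls, 11567 genes with values). Beam and experiment cannot be told apart here. The difference was called for 3506 genes (30.3%), 1791 higher (15.5%) and 1715 lower (14.8%) after carbon ions. After gamma rays alone 5197 genes were called (44.9%), 2735 higher (23.6%) and 2462 lower (21.3%). These counts come from a fit to all carbon and gamma arrays. The model pooled in this way called 203 of 11848 genes at day 1 after carbon ions. The 1941 calls (13.9%) given above for that day come from a fit to the carbon arrays only. They are therefore not comparable with the 5197 after gamma rays. Cdkn1a changed by 1.03 after carbon ions and 2.19 after gamma rays, a difference of -1.16 ± 0.27 (adjusted p = 0.000742). Mdm2 changed by 0.17 and 1.03, a difference of -0.86 ± 0.25 (adjusted p = 0.00729), and Plk1 by 0.06 and 0.92, a difference of -0.86 ± 0.28 (adjusted p = 0.016). The change of Ptx3 was 1.63 after carbon ions and -1.29 after gamma rays. Ero1a, lower by 1.09 after carbon ions, gave 0.07 after gamma rays, a difference of -1.16 ± 0.40 (adjusted p = 0.0198). The change of Trp53inp1 did not differ by a called amount (-0.26 ± 0.17, adjusted p = 0.253).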

How the data were processed

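Cy5-labelled RNA was hybridised to CodeLink arrays with 1 colour, per the labels' protocols. The authors deposited intensity on a linear scale, with a median near 1 on each of the 6 arrays; how spots were filtered, background-corrected and normalized is not given in the sources used here. Of 36227 probes, 21615 carried 1 gene symbol in the platform annotation, 681 several and 13931 none.

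Values under 0.0858, the 5th percentile of positive carbon values, were set to that floor before log2. Probes needed 1 symbol, a value on all 6 arrays and on 90% of the 40 carbon arrays, and a mean above the 20th percentile; the brightest probe of a gene was kept (13957 genes). limma 3.58.1 in R 4.3.3 fitted group means of the 20 carbon groups (20 residual degrees of freedom) with a mean-variance trend, tested 2-sided and adjusted by Benjamini-Hochberg. The comparison with gamma rays used all arrays (67 residual degrees of freedom). With 2 arrays a group, their number limits the precision. The method was tested on simulated data with independent noise and 200 changed genes. The simulation held no muscle difference between the mca4 groups and no correlation between replicate differences, so it does not bear on either.

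Named genes were the 6 largest rises and falls of the transient, sustained and delayed courses without overlap of the groups, up to 5 leading called members of each of 38 lists, and Cdkn1a, Mdm2, Ccng1, Trp53inp1 and Mki67. Of 36 genes of the first kind 6 without a well-known function were passed over; Il6, Il1b, Cxcl5, Ccl5, Irf7, Dhx58, Sesn1 and Vegfa were named after their values were seen. The members, lists and tests were chosen with earlier results of these data known. Differences between replicates correlated between groups (r = 0.162, 0.14 and 0.128 over 13957 genes), so the replicate numbers in the titles were taken to pair the arrays, and a fit with them as a block was tried. Further alternatives were quantile normalization, keeping dim probes, testing each probe, raising the floor to the 10th percentile, dropping the trend, weighting arrays, fitting only the 12 carbon arrays of mca4, only the 6 arrays, only the 24 carbon arrays of both mammary carcinomas or all arrays, and leaving out each array. Omitting genes that follow muscle, and muscle as a covariate, were added after seeing the data. Promoter sequences are from RefSeq. Plots were made in Python 3.11.15 using matplotlib 3.10.9.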

Additional observations from a re-analysis of the deposited data

Results flagged for a closer look

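Among 22 genes compared between the tumours or the beams, the changes of the following differed by a tested amount (adjusted p under 0.05 from limma). At 6 hours, the change in mca4 minus that in mmca was -2.68 for Gzmg (-1.75 in mca4 and 0.94 in mmca), -2.03 for Ptx3 (1.88 and 3.91), -1.52 for Klk6 (-0.44 and 1.09), 0.90 for H4bc24 (1.57 and 0.67) and 1.61 for the muscle gene Sln (0.06 and -1.55). At day 1 it was -2.34 for Gzmg (-1.62 and 0.72), -2.24 for Klk6 (-1.10 and 1.14), 1.31 for Ptx3 (1.63 and 0.32), 0.74 for Ccnb1ip1 (-1.30 and -2.04), -0.70 for Ero1a (-1.09 and -0.39) and 2.28 for Orm2 (1.96 and -0.32). It was also 0.42 for Gm38483, whose function is not well known (0.11 and -0.31), and for Wfdc1 and Sln, which followed muscle on the other carbon arrays, it was 1.55 (2.30 and 0.75) and 3.57 (2.0 and -1.57).

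At day 1, the change after carbon ions minus that after gamma rays was -1.16 for Cdkn1a (1.03 and 2.19), -0.61 for Ccng1 (0.82 and 1.43), -0.86 for Mdm2 (0.17 and 1.03), -0.86 for Plk1 (0.06 and 0.92), -0.76 for Cdc20 (-0.05 and 0.71), -1.23 for Ccnb1ip1 (-1.30 and -0.07), -1.16 for Ero1a (-1.09 and 0.07) and 2.92 for Ptx3 (1.63 and -1.29). Beam and experiment cannot be told apart in these differences.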

How the results depend on the processing

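Fitted with the gamma arrays, the model called 274 genes at 6 hours, 203 at day 1 and 639 between them, with 113 transient, 30 sustained, 84 delayed and 2 turned genes; the difference from mmca was called for 0 genes at 6 hours and 20 at day 1. Fitted to only the mca4 carbon arrays it called 327 sustained genes. With the replicate block the differences from mmca numbered 871 and 1792, and the block kept all 254 named gene calls; the list counts it moved stand beside the lists. Without the genes that follow muscle 88 genes turned. With muscle as a covariate 1601 were called between the times, 185 higher and 1416 lower at day 1. The splits became 1821 higher and 240 lower at 6 hours and 158 higher and 1257 lower at day 1. The median change over all genes then became 0.367 at 6 hours, -0.551 at day 1 and -0.929 between the times. Within a group the muscle mean differed by at most 0.269 log2, so the covariate's slope rests on small differences. This fit cannot separate muscle from time, and no conclusion is drawn from its splits. With each replicate left out in turn, calls ran between 1036 and 1784 at 6 hours, 1177 and 1279 at day 1, 1613 and 2472 between the times, 347 and 774 for transient, 293 and 430 for sustained, 494 and 695 for delayed and 98 and 161 for turned genes, and 310 and 696 (6 hours) and 676 and 1154 (day 1) for the difference from mmca. The comparison with gamma rays gave 2505 to 3091 without 1 array and 3501 to 3793 under the other settings, against 3506. Of 254 named calls 183 held without any 1 array and 92 under every other planned setting that tested them. With single arrays left out, the change of Mdm2 at 6 hours ran between -0.17 and 0.184 (-0.0955 without replicate 2 at 0 h), that of the epidermal gene Sprr1a at day 1 between -0.108 and 1.75 and that of the receptor gene Tgfbr3 at day 1 between -0.124 and 2.11, both negative without replicate 2 of day 1. The cause of these differences was not tested. Array number limits the precision.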
